A study of Mus musculus with 58 samples.

Results

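The genes described here are the enzymes, transporters and regulators of glycolysis together with a set of genes known to respond to low oxygen. They were taken as 33 gene symbols matched to the mouse gene identifiers of a count table with 56953 genes, and grouped by role: 3 transporters of glucose or lactate, 17 glycolytic enzymes, 4 regulators of glycolytic flux and 9 genes of the hypoxia response. All 33 symbols had a row, and 32 passed the filter on low counts (at least 5 reads in more than 3 libraries) that left 12464 genes for testing; Car9, a carbonic anhydrase of the cell surface, did not pass. The study sorted adipose stem cells from inguinal white adipose tissue (iWAT) of C57BL6/J mice as CD45-/CD31-/CD34+ cells and split them by DPP4, a surface peptidase, into DPP4- cells (ASC1) and DPP4+ cells (ASC2). Bulk RNA sequencing libraries came from control males (7 ASC1 and 8 ASC2), castrated males (8 and 8), control females (8 and 8) and ovariectomized females (3 and 8), 58 in all. Surgery was at 4 weeks of age and tissue was taken at 10 weeks of age. Removal of the gonads takes away the testes or the ovaries as a whole, so that the loss of a single hormone cannot be told apart from the loss of the others. The comparison of ASC2 with ASC1, of gonadectomized with control mice and of males with females follows from these 8 groups.

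Glycolysis carries glucose, taken up by transporters such as GLUT1, through a chain of cytosolic enzymes to pyruvate, and lactate dehydrogenase then turns pyruvate into lactate, which leaves the cell through monocarboxylate transporters. When oxygen is scarce, hypoxia-inducible factors escape hydroxylation by prolyl hydroxylases, pair with ARNT and bind short DNA motifs near many of these same genes. Fibroblast-like progenitors of adipose tissue use glycolysis and oxidative metabolism side by side, and genes of glycolysis are also abundant in growing cells and in many other cell types.

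Library totals ran from 106566 to 1421547 counts. In 27 libraries the transcripts of Xist and of 4 Y-linked genes did not match the labelled sex, which took in 8 of 8 castrated ASC1, 4 of 7 and 4 of 8 control male ASC1 and ASC2, and 5 of 8 and 6 of 8 control female ASC1 and ASC2 libraries. The labels are therefore in doubt for these libraries. Each group named below is the libraries labelled so, and every comparison of sexes, surgeries or populations rests on those labels. In castrated males Xist stood at 51.9 to 118 CPM and the Y-linked sum at 0 to 4.72 in ASC1, against 0 to 7.99 and 55.9 to 100 in ASC2. Some control libraries held both, such as control female ASC2 library G, with Xist at 45.8 CPM and the Y-linked sum at 53.2. Control female ASC1 libraries B, C, D, G and H had Xist at 2.42 to 7.24 CPM and the Y-linked sum at 61.6 to 79.8. In control male ASC1 libraries B, C and D these were 0 and 50.9 to 64.7 CPM. For female controls the paper reports low counts of Ddx3y and Eif2s3y, which it reads as weak contamination by male mRNA. It holds the samples to be clean because Sult1e1 and C7 counts were low relative to male controls. Whether libraries were exchanged or mixed was not tested. In 22 libraries Tcf21, a gene of visceral fat and mesothelium, stood at 10 CPM (counts per 1000000 counts, scaled between libraries) or more, and 11 libraries met both conditions; counts without either set are given beside the results they bear on. Dpp4 followed the sort, with medians of 7.64 to 33.9 CPM in the 4 ASC1 groups and 87.6 to 241 CPM in the 4 ASC2 groups, and the fibroblast gene Pdgfra was present in every library. The 3 ovariectomized ASC1 libraries, named L, N and P, stood apart from all others. Their 4 fibroblast markers (Pdgfra, Col1a1, Dcn, Lum) summed to 43144 to 45105 CPM against 5122 to 9137 in control female ASC1, their 7 dissociation-stress genes (Fos, Jun, Junb, Egr1, Atf3, Hspa1a, Hspa1b) to 2712 to 3656 against 178 to 363, and their 4 proliferation genes to 8.0 to 13.8 against 210.5 to 721.

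The stretches upstream of 6 members are shown because their transcripts carried the differences described below and because they differ in the core letters of the hypoxia response element. Each run is the 250 bases before the first transcript start listed by RefSeq on GRCm38.p6, read 5′ to 3′ on the gene's strand, with ACGTG and GCGTG on either strand in capitals. Slc2a1 lies at chr4:119108495-119108744, Slc16a3 at chr11:120948817-120949066, Pgk1 at chrX:106186850-106187099, Ldha at chr7:46845554-46845803 and Pkm at chr9:59656326-59656575, all on the plus strand, and Bnip3 at chr7:138909507-138909756 on the minus strand.
Slc2a1: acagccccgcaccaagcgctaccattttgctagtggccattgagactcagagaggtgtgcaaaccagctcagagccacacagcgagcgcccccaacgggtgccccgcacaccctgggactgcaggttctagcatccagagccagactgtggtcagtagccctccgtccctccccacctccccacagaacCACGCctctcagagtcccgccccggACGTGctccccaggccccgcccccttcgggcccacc
Slc16a3: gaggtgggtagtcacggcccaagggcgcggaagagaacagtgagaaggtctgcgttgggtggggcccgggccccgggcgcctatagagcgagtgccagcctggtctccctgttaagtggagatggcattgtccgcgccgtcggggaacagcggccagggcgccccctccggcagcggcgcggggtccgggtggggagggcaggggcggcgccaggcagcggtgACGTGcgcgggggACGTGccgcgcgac
Pgk1: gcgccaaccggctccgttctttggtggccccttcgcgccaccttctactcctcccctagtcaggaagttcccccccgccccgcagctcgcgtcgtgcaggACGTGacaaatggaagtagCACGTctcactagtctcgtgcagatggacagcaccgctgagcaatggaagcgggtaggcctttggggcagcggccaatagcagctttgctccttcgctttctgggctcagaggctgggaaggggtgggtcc
Ldha: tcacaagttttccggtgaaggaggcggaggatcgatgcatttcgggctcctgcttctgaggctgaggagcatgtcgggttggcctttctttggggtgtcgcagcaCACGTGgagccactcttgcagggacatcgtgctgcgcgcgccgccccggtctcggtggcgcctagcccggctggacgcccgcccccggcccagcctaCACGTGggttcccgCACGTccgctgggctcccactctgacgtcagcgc
Bnip3: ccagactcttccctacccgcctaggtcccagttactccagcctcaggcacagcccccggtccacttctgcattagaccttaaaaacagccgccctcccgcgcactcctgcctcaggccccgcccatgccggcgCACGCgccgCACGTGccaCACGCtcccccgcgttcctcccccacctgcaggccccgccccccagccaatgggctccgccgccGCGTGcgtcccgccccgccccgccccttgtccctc
Pkm: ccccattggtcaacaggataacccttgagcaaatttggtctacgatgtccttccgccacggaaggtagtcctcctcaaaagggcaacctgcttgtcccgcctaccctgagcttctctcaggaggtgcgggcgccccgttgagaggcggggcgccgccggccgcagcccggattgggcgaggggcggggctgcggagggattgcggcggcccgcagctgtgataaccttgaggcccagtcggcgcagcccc

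Such an entry was found for 32 of the 33 members; Ndrg1 is named only. Of these 32, 16 held ACGTG (50%) and 18 held GCGTG (56.25%), and 26 held either (81.25%). Where ACGTG was read on both strands over the same bases, as CACGTG, the gene was counted 1 time. Among 9458 tested genes with an upstream stretch of the same length, 21.7% held ACGTG, 45.8% held GCGTG and 57.0% held either, and among all 27025 genes with one these shares were 16.6%, 28.2% and 38.6%. All 3 transporters, all 4 regulators and all 8 hypoxia-response genes with an entry held at least 1 of the cores, against 11 of 17 glycolytic enzymes. The 6 enzymes without one were Eno2, Tpi1, Gpi1, Aldoa, Pkm and Hk1. RefSeq lists 3 starts for Aldoa and 2 each for Pkm and Hk1, and only the stretch before the first was read. The printed Ldha stretch held ACGTG at 3 places and Bnip3 held both cores, whereas Pkm held neither. A match is a string of letters and no evidence of binding.

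In the values below, each set of 3 numbers is the lowest, the median and the highest library of a group in CPM, except that ovariectomized ASC1 is given as libraries L, N and P. CPM values are not divided by transcript length, so they compare one gene between groups and not one gene with another. Lowest and highest group means and overlap between groups were counted for the members only. No share over all genes stands beside these counts. In 24 of the 33 members the lowest group mean was in ovariectomized ASC1. Against control female ASC1, 22.1% of all tested genes passed as lower there. The highest group mean was in castrated ASC1 for 14 members and in control female ASC1 for 12, in control male ASC2 for 4, in ovariectomized ASC1 for 2 (Ndrg1 and Pfkfb3) and in castrated ASC2 for 1. Bulk libraries give RNA of a whole sort, so fewer cells expressing a gene and less RNA of it per cell cannot be told apart.

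**Figure D1:**
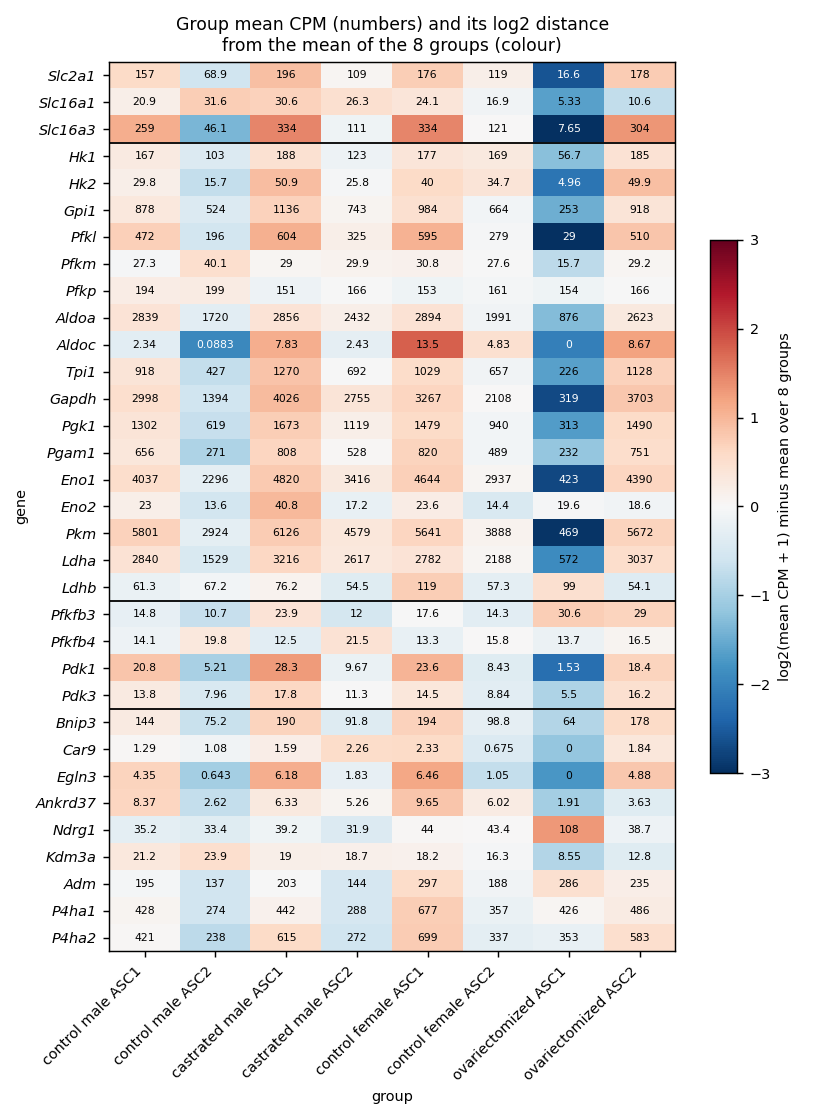
Mean CPM of each member (rows) in each of the 8 groups (columns), printed in the cells and coloured by log2(mean CPM + 1) minus the gene's mean over the 8 groups. The ovariectomized ASC1 column held the lowest mean for 24 of 33 members, a count not made over all genes. For ASC2 against ASC1 the log2 estimate was below 0 for 26 of the 32 tested members in control males, 30 in control females and 28 in castrated males.

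Slc2a1 encodes GLUT1, the basal glucose transporter. Male Slc2a1 values were 134, 159 and 191 CPM in control ASC1, 33.5, 68.2 and 110.3 in control ASC2, 165, 196 and 233 in castrated ASC1 and 59.5, 103 and 153 in castrated ASC2. Female Slc2a1 values were 137, 172 and 248 CPM in control ASC1 and 84.3, 107 and 167 in control ASC2, 16.0, 9.18 and 24.8 in the 3 ovariectomized ASC1 libraries and 140.4, 173 and 221 in ovariectomized ASC2. Every control male ASC2 library lay below every control male ASC1 library, the castrated groups were apart in the same way, and libraries L, N and P lay below all 55 others. Slc16a3 encodes MCT4, which exports lactate. In males, Slc16a3 stood at 179.6, 232 and 361 CPM in control ASC1 and 9.09, 50.9 and 70.0 in control ASC2, and at 271, 331 and 398 in ASC1 and 17.4, 84.2 and 265 in ASC2 after castration. In females, Slc16a3 stood at 234, 348 and 407 CPM in control ASC1 and 11.1, 75.5 and 286 in control ASC2, and at 0, 22.9 and 0 in ASC1 and 151, 298 and 464 in ASC2 after ovariectomy. ASC1 and ASC2 did not overlap in control or in castrated males, and the ovariectomized ASC1 libraries, with 5 reads in all and every one of them in library N, lay below control female ASC1 and ovariectomized ASC2. Slc16a1, the MCT1 transporter that moves lactate in either direction, ranged over the groups from a mean of 5.33 to 31.6 CPM and passed no test.

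**Figure D2:**
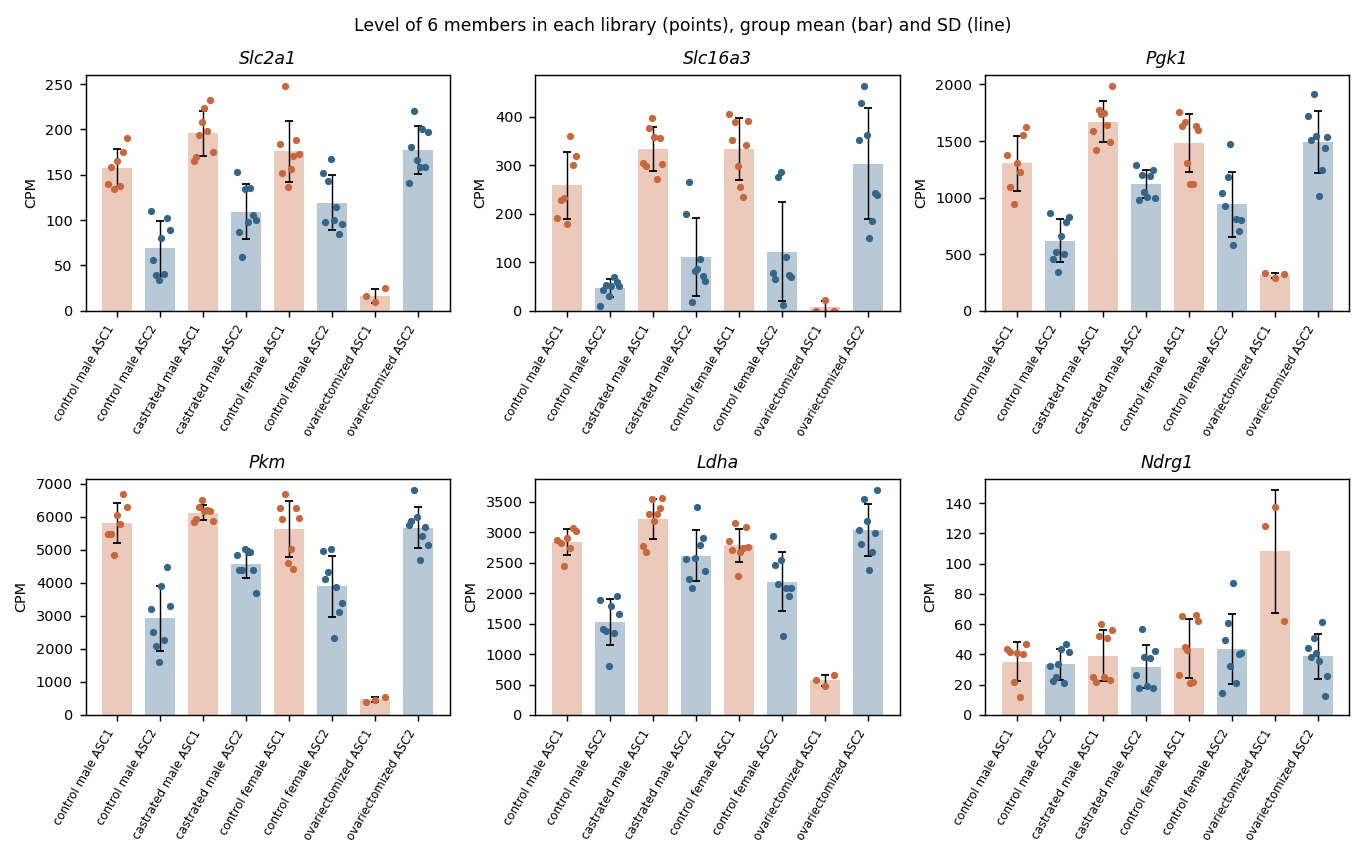
CPM of Slc2a1, Slc16a3, Pgk1, Pkm, Ldha and Ndrg1 in each library (points) of the 8 groups, with bars at the group mean and error bars of 1 SD (n = 7 or 8, and 3 in ovariectomized ASC1), each axis starting at 0. The 3 ovariectomized ASC1 libraries sat below all 55 others for Slc2a1, Pgk1, Pkm and Ldha, below control female ASC1 for Slc16a3 and above ovariectomized ASC2 for Ndrg1, and control male ASC2 sat below control male ASC1 in the first 5 panels.

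Hexokinases trap glucose in the cell by phosphorylating it. Male Hk1 values were 91.7, 184 and 207 CPM in control ASC1, 70.0, 93.9 and 149.8 in control ASC2, 153, 181 and 247 in castrated ASC1 and 95.8, 118 and 178 in castrated ASC2. Female Hk1 values were 116, 182 and 232 CPM in control ASC1 and 123, 162 and 223 in control ASC2, 42.3, 59.7 and 68.1 in the 3 ovariectomized ASC1 libraries and 85.7, 182 and 272 in ovariectomized ASC2. The lower end of control male ASC1 was a single library at 91.7 CPM, and the groups overlapped except that libraries L, N and P lay below all 55 others. In males, Hk2 stood at 22.2, 27.8 and 44.8 CPM in control ASC1 and 9.50, 13.9 and 26.8 in control ASC2, and at 20.4, 49.0 and 68.0 in ASC1 and 10.2, 25.6 and 38.4 in ASC2 after castration. In females, Hk2 stood at 26.2, 36.3 and 58.1 CPM in control ASC1 and 17.8, 26.4 and 62.0 in control ASC2, and at 10.3, 4.59 and 0 in ASC1 and 25.2, 49.3 and 71.0 in ASC2 after ovariectomy. For Hk2, the inducible hexokinase, ovariectomized ASC1 lay below control female ASC1 and ovariectomized ASC2 without overlap, and the other group pairs overlapped. Per kilobase of merged exons, Hk1 made up 80.7% ± 5.65 to 92.1% ± 8.80 (SD) of Hk1 plus Hk2 over the 8 groups, so that Hk1 was the larger in each.

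Gpi1 turns phosphorylated glucose into phosphorylated fructose. Male Gpi1 values were 664, 878 and 1100.1 CPM in control ASC1, 393, 486 and 729 in control ASC2, 896, 1169 and 1341 in castrated ASC1 and 596, 734 and 928 in castrated ASC2. Female Gpi1 values were 663, 1057 and 1205 CPM in control ASC1 and 391, 655 and 874 in control ASC2, 247, 239 and 272 in the 3 ovariectomized ASC1 libraries and 648, 936 and 1136 in ovariectomized ASC2. Libraries L, N and P lay below all 55 others, and the remaining groups overlapped in every comparison tested. Phosphofructokinase commits the sugar to glycolysis, and Pfkl, Pfkm and Pfkp encode its liver, muscle and platelet subunits. In males, Pfkl stood at 385, 461 and 544 CPM in control ASC1 and 93.5, 202 and 292 in control ASC2, and at 499, 599 and 808 in ASC1 and 74.0, 329 and 567 in ASC2 after castration. In females, Pfkl stood at 383, 639 and 738 CPM in control ASC1 and 49.1, 233 and 584 in control ASC2, and at 10.3, 64.3 and 12.4 in ASC1 and 276, 537 and 688 in ASC2 after ovariectomy. Control male ASC2 lay below control male ASC1, and ovariectomized ASC1 below control female ASC1 and ovariectomized ASC2, without overlap. Pfkm and Pfkp passed no test, with group means of 15.7 to 40.1 CPM for Pfkm and 151 to 199 CPM for Pfkp. Per kilobase, Pfkl made up 69.8% ± 3.38, 78.1% ± 3.44 and 77.3% ± 3.42 (SD) of the 3 subunits in control male, castrated male and control female ASC1, and 46.1% ± 8.62, 61.4% ± 14.7 and 56.9% ± 16.9 in the matching ASC2 groups. In ovariectomized mice the share of Pfkl was 14.5% ± 12.9 in ASC1, where Pfkp held 73.7% ± 2.71, and 72.8% ± 4.91 in ASC2.

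Aldolase splits the phosphorylated hexose into trioses. Male Aldoa values were 2562, 2783 and 3112 CPM in control ASC1, 1289, 1811 and 2087 in control ASC2, 2613, 2832 and 3123 in castrated ASC1 and 1856, 2257 and 3405 in castrated ASC2. Female Aldoa values were 2284, 2998 and 3298 CPM in control ASC1 and 1262, 1997 and 2723 in control ASC2, 871, 753 and 1003 in the 3 ovariectomized ASC1 libraries and 1946, 2614 and 3204 in ovariectomized ASC2. Aldoa did not overlap between ASC2 and ASC1 of control males, and libraries L, N and P lay below all 55 others. Aldoc, the brain aldolase, was near the detection limit. In males, Aldoc stood at 0, 1.99 and 7.64 CPM in control ASC1 and 0, 0 and 0.706 in control ASC2, and at 3.59, 4.98 and 16.0 in ASC1 and 0, 2.45 and 6.39 in ASC2 after castration. In females, Aldoc stood at 0, 13.2 and 36.3 CPM in control ASC1 and 0, 1.27 and 24.4 in control ASC2, and at 0, 0 and 0 in ASC1 and 0, 7.96 and 23.1 in ASC2 after ovariectomy. It had 0 reads in ovariectomized ASC1 and 1 read in control male ASC2, and no groups compared were apart.

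Tpi1 interconverts the trioses. Male Tpi1 values were 683, 876 and 1151 CPM in control ASC1, 123, 428 and 636 in control ASC2, 1048, 1322 and 1449 in castrated ASC1 and 501, 694 and 853 in castrated ASC2. Female Tpi1 values were 786, 1067 and 1299 CPM in control ASC1 and 363, 589 and 1089.9 in control ASC2, 229.7, 220.3 and 229 in the 3 ovariectomized ASC1 libraries and 722, 1181 and 1497 in ovariectomized ASC2. The ranges were apart between ASC2 and ASC1 in control and in castrated males, and ovariectomized ASC1 lay below control female ASC1 and ovariectomized ASC2. Gapdh oxidizes glyceraldehyde phosphate and is often used as a reference transcript. In males, Gapdh stood at 1983, 3175 and 4019.8 CPM in control ASC1 and 129, 1420.5 and 2214 in control ASC2, and at 2968, 4284 and 4530.4 in ASC1 and 1803, 2799.6 and 3239 in ASC2 after castration. In females, Gapdh stood at 1633, 3670.2 and 4586 CPM in control ASC1 and 1104, 2154 and 2723 in control ASC2, and at 384, 96.4 and 477 in ASC1 and 2496, 3697 and 4929 in ASC2 after ovariectomy. One control male ASC2 library at 129 CPM stood far below the other 7 of its group, and only ovariectomized ASC1 was apart from its neighbours. Pgk1, which makes ATP from bisphosphoglycerate, was among the clearest members. Male Pgk1 values were 941, 1309 and 1620.2 CPM in control ASC1, 346, 587 and 867 in control ASC2, 1419, 1689 and 1988 in castrated ASC1 and 979.9, 1124 and 1289 in castrated ASC2. Female Pgk1 values were 1118, 1613 and 1758 CPM in control ASC1 and 584, 866 and 1474 in control ASC2, 329, 289 and 322 in the 3 ovariectomized ASC1 libraries and 1015, 1523 and 1917 in ovariectomized ASC2. ASC2 lay below ASC1 without overlap in control and in castrated males, castrated ASC2 lay above control male ASC2, and libraries L, N and P lay below all 55 others.

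Pgam1 moves the phosphate group of phosphoglycerate. In males, Pgam1 stood at 484, 633 and 809 CPM in control ASC1 and 161, 261 and 365 in control ASC2, and at 615, 805 and 953 in ASC1 and 350.0, 545 and 677 in ASC2 after castration. In females, Pgam1 stood at 658, 819 and 978 CPM in control ASC1 and 234, 459.8 and 704 in control ASC2, and at 235, 239 and 223 in ASC1 and 437, 781 and 1058 in ASC2 after ovariectomy. Control male ASC2 lay below control male ASC1, and ovariectomized ASC1 below control female ASC1 and ovariectomized ASC2. A processed copy, Pgam1-ps2, drew counts equal to 3.25% of those of Pgam1, and other named near-identical copies drew at most 0.033%. Enolase makes phosphoenolpyruvate. Male Eno1 values were 3308, 3929 and 4819 CPM in control ASC1, 1919.7, 2276 and 2722 in control ASC2, 4198, 4870.0 and 5267 in castrated ASC1 and 2849, 3359 and 4309.5 in castrated ASC2. Female Eno1 values were 4054, 4648 and 5042 CPM in control ASC1 and 1379, 2786 and 4858 in control ASC2, 397, 427 and 446 in the 3 ovariectomized ASC1 libraries and 3109.9, 4513 and 5149 in ovariectomized ASC2. For Eno1 control male ASC2 was apart from ASC1 below it and from castrated ASC2 above it, and libraries L, N and P lay below all 55 others. Eno2, the neuronal enolase, passed no test and had group means of 13.6 to 40.8 CPM. Pkm, pyruvate kinase, closes the chain. In males, Pkm stood at 4855, 5776 and 6689 CPM in control ASC1 and 1599, 2863 and 4490.4 in control ASC2, and at 5842, 6177 and 6513 in ASC1 and 3706, 4624 and 5019 in ASC2 after castration. In females, Pkm stood at 4417, 5938 and 6676 CPM in control ASC1 and 2329.8, 3989 and 5022 in control ASC2, and at 400.0, 464 and 545 in ASC1 and 4692, 5717 and 6806 in ASC2 after ovariectomy. ASC2 did not overlap ASC1 in control or castrated males, and libraries L, N and P lay below all 55 others.

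Lactate dehydrogenase is a tetramer of subunits encoded by Ldha and Ldhb. Male Ldha values were 2439, 2880.1 and 3074 CPM in control ASC1, 805, 1535 and 1949 in control ASC2, 2671, 3302 and 3558 in castrated ASC1 and 2078, 2564 and 3416 in castrated ASC2. Female Ldha values were 2288, 2749 and 3152 CPM in control ASC1 and 1291, 2116 and 2939 in control ASC2, 582, 477 and 656 in the 3 ovariectomized ASC1 libraries and 2379.6, 3011 and 3692 in ovariectomized ASC2. Control male ASC2 lay below control male ASC1 and below castrated ASC2, and libraries L, N and P lay below all 55 others. In males, Ldhb stood at 33.0, 52.6 and 83.0 CPM in control ASC1 and 40.6, 70.4 and 85.0 in control ASC2, and at 39.5, 82.6 and 91.8 in ASC1 and 40.2, 50.6 and 84.1 in ASC2 after castration. In females, Ldhb stood at 66.1, 139 and 157 CPM in control ASC1 and 29.3, 58.7 and 80.1 in control ASC2, and at 109, 45.9 and 142 in ASC1 and 26.9, 59.6 and 85.7 in ASC2 after ovariectomy. The groups overlapped for Ldhb in every comparison tested, and of the ovariectomized ASC1 libraries L and P lay within the range of control female ASC1 and N below it. Per kilobase, Ldhb made up 19.2% ± 6.14 (SD) of the 2 genes in ovariectomized ASC1 and 2.53% ± 0.896 to 6.21% ± 1.65 in the other 7 groups.

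Among the regulators, pyruvate dehydrogenase kinases hold pyruvate back from the mitochondria. Male Pdk1 values were 9.95, 18 and 42.2 CPM in control ASC1, 0, 4.70 and 14.2 in control ASC2, 16.0, 26.7 and 44.4 in castrated ASC1 and 1.45, 4.96 and 22.6 in castrated ASC2. Female Pdk1 values were 13.9, 19.97 and 41.1 CPM in control ASC1 and 0, 7.23 and 20.7 in control ASC2, 0, 4.59 and 0 in the 3 ovariectomized ASC1 libraries and 7.69, 17.6 and 33.4 in ovariectomized ASC2. Pdk1 had 1 read in the 3 ovariectomized ASC1 libraries, which lay below control female ASC1 and ovariectomized ASC2, and overlapped between ASC1 and ASC2 elsewhere. In males, Pdk3 stood at 5.69, 12.5 and 22.7 CPM in control ASC1 and 1.93, 7.18 and 18.2 in control ASC2, and at 6.66, 18.8 and 26.2 in ASC1 and 2.90, 11.6 and 20.5 in ASC2 after castration. In females, Pdk3 stood at 6.03, 14.7 and 26.5 CPM in control ASC1 and 3.17, 8.13 and 14.9 in control ASC2, and at 1.14, 9.18 and 6.19 in ASC1 and 6.87, 16.3 and 25.7 in ASC2 after ovariectomy. Pdk3 overlapped in every comparison tested. Pfkfb3 and Pfkfb4, which set the level of fructose bisphosphate, an activator of phosphofructokinase, passed no test, with group means of 10.7 to 30.6 and 12.5 to 21.5 CPM.

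Of the hypoxia-response genes, Bnip3 encodes a mitophagy receptor. Male Bnip3 values were 104, 123 and 210.1 CPM in control ASC1, 43.8, 74.0 and 116 in control ASC2, 138, 183 and 277 in castrated ASC1 and 53.7, 83.8 and 155 in castrated ASC2. Female Bnip3 values were 110.3, 202 and 256 CPM in control ASC1 and 39.6, 69.0 and 240.2 in control ASC2, 81.1, 55.1 and 55.7 in the 3 ovariectomized ASC1 libraries and 46.2, 166 and 308 in ovariectomized ASC2. Ovariectomized ASC1 lay below control female ASC1 and overlapped ovariectomized ASC2. P4ha1 and P4ha2 encode catalytic subunits of collagen prolyl hydroxylase. In males, P4ha2 stood at 317, 441 and 507 CPM in control ASC1 and 170.2, 239 and 297 in control ASC2, and at 370.3, 673 and 714 in ASC1 and 66.7, 273 and 406 in ASC2 after castration. In females, P4ha2 stood at 276, 853 and 918 CPM in control ASC1 and 184, 257 and 681 in control ASC2, and at 305, 427 and 328 in ASC1 and 236, 562 and 952 in ASC2 after ovariectomy. Control male ASC2 lay below control male ASC1 without overlap, and the other pairs overlapped. Male P4ha1 values were 310.4, 441 and 539 CPM in control ASC1, 199, 269 and 342 in control ASC2, 379, 447 and 502 in castrated ASC1 and 144, 272 and 435 in castrated ASC2. Female P4ha1 values were 356, 717 and 825 CPM in control ASC1 and 168, 289 and 718 in control ASC2, 598, 390.1 and 291 in the 3 ovariectomized ASC1 libraries and 282, 488 and 739 in ovariectomized ASC2. P4ha1 overlapped in every comparison tested. Egln3 encodes the oxygen-dependent hydroxylase PHD3, itself raised by hypoxia in many cells. In males, Egln3 stood at 0, 5.48 and 8.68 CPM in control ASC1 and 0, 0 and 2.12 in control ASC2, and at 1.79, 6.20 and 12.4 in ASC1 and 0, 1.14 and 4.79 in ASC2 after castration. In females, Egln3 stood at 0, 7.51 and 12.1 CPM in control ASC1 and 0, 0 and 3.70 in control ASC2, and at 0, 0 and 0 in ASC1 and 0, 4.94 and 9.60 in ASC2 after ovariectomy. It was low everywhere, with 0 reads in ovariectomized ASC1, and no groups compared were apart.

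Ndrg1, a stress- and differentiation-related cytosolic protein, was the only member higher in ovariectomized than in control female ASC1 at the test's threshold. Male Ndrg1 values were 12.2, 41.0 and 46.9 CPM in control ASC1, 21.2, 33.0 and 47.2 in control ASC2, 21.7, 37.9 and 60.2 in castrated ASC1 and 17.6, 32.0 and 56.6 in castrated ASC2. Female Ndrg1 values were 21.4, 44.0 and 66.3 CPM in control ASC1 and 14.8, 40.7 and 87.1 in control ASC2, 125, 138 and 61.9 in the 3 ovariectomized ASC1 libraries and 12.4, 39.8 and 61.5 in ovariectomized ASC2. Libraries L, N and P lay above all ovariectomized ASC2 libraries and overlapped the control female ASC1 range. Adm, the vasoactive peptide adrenomedullin, had group means of 137 to 297 CPM and differed in 1 comparison. Kdm3a, a histone demethylase, and Ankrd37, a small ankyrin-repeat protein, passed no test, with means of 8.55 to 23.9 CPM and 1.91 to 9.65 CPM. Ankrd37 had 2 reads in ovariectomized ASC1, a pooled level 6.87-fold below control female ASC1 with a 95% exact counting interval of 1.81 to 58.3. Car9 was close to 0 throughout, at group means of 0 to 2.33 CPM, and is given no fold. Counting intervals here and below cover counting error only, since reads with and without molecular identifiers were counted together.

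In control males, control females and castrated males, 17, 16 and 13 of the 32 tested members were lower in DPP4+ ASC2 than in DPP4- ASC1, and 0 were higher. Slc16a3, Gpi1, Pfkl, Tpi1, Pgk1, Pgam1, Eno1, Pdk1, Bnip3 and P4ha2 were lower in ASC2 in all 3 comparisons, which hold different libraries. In control females no call held without the libraries against their sex label, in castrated males none held without the Tcf21 libraries, and all 8 castrated ASC1 libraries went against their sex label. A further 5 (Slc2a1, Hk1, Hk2, Aldoa, Pkm) were lower in 2 of the 3, and 6 (Gapdh, Ldha, Ldhb, Egln3, Adm, P4ha1) in 1. Differences were tested with edgeR's quasi-likelihood test over all 58 libraries with Benjamini-Hochberg adjustment over all 12464 genes, and are given as log2 fold changes ± SE.

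In control males 17 of 32 members were lower in ASC2 and 0 were higher, where 12.2% of all tested genes passed in either direction. The median over the members was -0.82 on the log2 scale, against -0.01 over all genes. The fallers took in 2 of 3 transporters, 12 of 17 enzymes, 1 of 4 regulators and 2 of 8 hypoxia-response genes, and for 11 of them the 2 groups did not overlap. Overlap was not counted over all genes. The 10 largest differences among the members that passed were -2.48 ± 0.39 (adjusted p = 6.76e-06) for Slc16a3, -1.91 ± 0.47 (adjusted p = 0.00354) for Pdk1, -1.27 ± 0.18 (adjusted p = 5.32e-07) for Pgam1, -1.27 ± 0.29 (adjusted p = 0.00202) for Pfkl, -1.18 ± 0.19 (adjusted p = 1.20e-05) for Slc2a1, -1.10 ± 0.28 (adjusted p = 0.00463) for Gapdh, -1.10 ± 0.20 (adjusted p = 9.98e-05) for Tpi1, -1.07 ± 0.17 (adjusted p = 4.66e-06) for Pgk1, -0.99 ± 0.15 (adjusted p = 4.16e-06) for Pkm and -0.95 ± 0.29 (adjusted p = 0.0222) for Hk2. Without the libraries that went against their sex label the count was 10, and without those with Tcf21 it was 15. Aldoc, with 1 read in ASC2 and 12 in ASC1, was 14.1-fold lower in pooled level (95% exact counting interval 2.09 to 604) and did not pass.

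In control females 16 members were lower in ASC2 and 0 were higher, where 6.11% of all tested genes passed. They were 1 of 3 transporters, 9 of 17 enzymes, 1 of 4 regulators and 5 of 8 hypoxia-response genes. The median over the members was -0.65, against 0.00 over all genes, and for 0 members were the groups apart. The 10 largest differences among the members that passed were -2.49 ± 0.70 (adjusted p = 0.0189) for Egln3, -1.44 ± 0.36 (adjusted p = 0.00654) for Slc16a3, -1.38 ± 0.43 (adjusted p = 0.0414) for Pdk1, -1.09 ± 0.28 (adjusted p = 0.00929) for Pfkl, -1.06 ± 0.22 (adjusted p = 0.000594) for Ldhb, -1.04 ± 0.27 (adjusted p = 0.00902) for P4ha2, -0.95 ± 0.30 (adjusted p = 0.0404) for Bnip3, -0.92 ± 0.23 (adjusted p = 0.00551) for P4ha1, -0.75 ± 0.17 (adjusted p = 0.0023) for Pgam1 and -0.66 ± 0.19 (adjusted p = 0.0229) for Adm. Without the libraries against their sex label, which left 3 ASC1 and 2 ASC2 libraries, 0 members passed, and for 9 of the 16 the estimate then stood above 0. Without the Tcf21 libraries 3 passed, and 10 where only the 2 groups compared entered the fit.

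In castrated males 13 members were lower in ASC2 and 0 were higher, where 9.09% of all tested genes passed. They were 2 of 3 transporters, 8 of 17 enzymes, 1 of 4 regulators and 2 of 8 hypoxia-response genes. The median was -0.61 over the members and 0.01 over all genes, and for Slc2a1, Slc16a3, Tpi1, Pgk1 and Pkm the groups did not overlap. The 10 largest differences among the members that passed were -1.66 ± 0.43 (adjusted p = 0.00738) for Pdk1, -1.56 ± 0.36 (adjusted p = 0.00243) for Slc16a3, -1.17 ± 0.27 (adjusted p = 0.00249) for P4ha2, -1.04 ± 0.30 (adjusted p = 0.0163) for Bnip3, -0.92 ± 0.27 (adjusted p = 0.0199) for Hk2, -0.89 ± 0.28 (adjusted p = 0.0343) for Pfkl, -0.87 ± 0.20 (adjusted p = 0.00159) for Tpi1, -0.84 ± 0.18 (adjusted p = 0.00116) for Slc2a1, -0.61 ± 0.15 (adjusted p = 0.00555) for Gpi1 and -0.61 ± 0.17 (adjusted p = 0.0127) for Pgam1. Without the Tcf21 libraries, which left 2 ASC1 and 7 ASC2 libraries, 0 passed. Without libraries under 300000 counts 7 passed, and without libraries against their sex label no castrated ASC1 library remained.

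Other markers moved in the same 3 comparisons. Of the 7 dissociation-stress genes, 3 were higher in ASC2 in control males, 4 in control females and 3 in castrated males, and their sums were 184 to 627 CPM in ASC1 and 794 to 1785 in ASC2 of control males, 178 to 363 and 431 to 3214 in control females, and 92.6 to 221 and 241 to 1135 in castrated males. In castrated males 5 of 6 tested macrophage genes were higher in ASC2, with sums of 590.5 to 866 and 1307 to 6444 CPM, and in control females 3 of 3 tested epithelial genes were lower in ASC2, with sums of 39.4 to 716 and 6.37 to 38.0 CPM. Mesothelial or visceral genes were lower in ASC2 too, 2 of 6 in control males and 3 of 6 in castrated males, where their sums were 0 to 209.7 CPM in ASC1 and 0 to 81.6 in ASC2. Red-cell genes were higher in ASC2, 1 of 4 in each male condition and 2 of 4 in control females. The part of these genes in the difference between ASC2 and ASC1 was not tested.

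In ovariectomized females the order was the other way round. Here 19 members were higher in ASC2 and 2 (Ndrg1 and Ldhb) were lower, where 35.4% of all tested genes passed. The median was 1.75 over the members, or 1.64 with the genes at 0 reads set to their bound, against 0.37 over all genes. For 15 members ASC2 lay above ASC1 without overlap and for Ndrg1 below it, with no count over all genes to compare. Slc16a3 differed by 5.98 ± 0.89 (adjusted p = 2.89e-07), Pfkl by 4.34 ± 0.56 (adjusted p = 1.04e-08), Pkm by 3.60 ± 0.25 (adjusted p = 4.77e-18), Gapdh by 3.54 ± 0.45 (adjusted p = 8.38e-09) and Slc2a1 by 3.45 ± 0.36 (adjusted p = 2.57e-11). Lower in ASC2 were Ndrg1, by -1.48 ± 0.39 (adjusted p = 0.00186), and Ldhb, by -0.88 ± 0.31 (adjusted p = 0.0205). Pdk1 was 24.4-fold higher in pooled level (95% exact counting interval 4.29 to 975), Aldoc at least 3.62-fold and Egln3 at least 2.04-fold. Leaving out library L, N or P gave 16 to 20 calls. Without library L the calls of Pdk1, Pdk3, Aldoc, Egln3 and Ldhb were lost, without N that of Egln3 and without P that of Ldhb. The 4 fibroblast markers, 3 of 4 red-cell and 3 of 7 stress genes were lower in ASC2 here. In turn 4 of 4 proliferation, 3 of 3 tested epithelial, 3 of 6 tested macrophage and 2 of 6 endothelial genes were higher; their part was not tested.

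**Figure D3:**
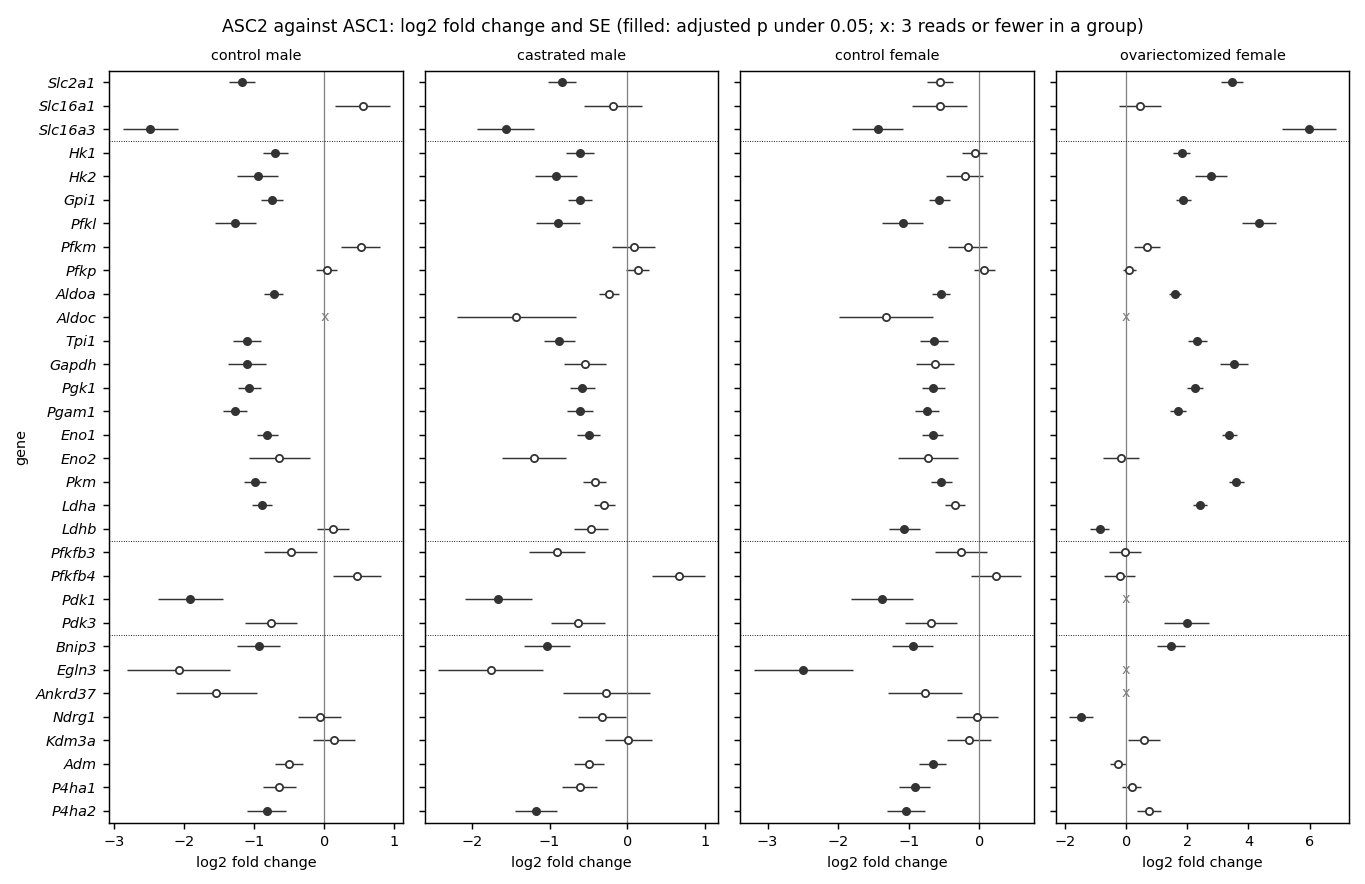
Log2 fold change of ASC2 against ASC1 with its SE for each tested member in the 4 conditions; filled points passed the test at an adjusted p of 0.05, and crosses mark comparisons in which a group held at most 3 reads. In control males, control females and castrated males the filled points lay left of 0, and in ovariectomized females 16 filled points lay right of 0 and 2 left, with 3 further called members shown as crosses.

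After castration, glycolytic transcripts of ASC2 were higher, whereas no member passed in ASC1. In ASC2 11 of 32 members were higher in castrated males than in control males and 0 were lower, where 6.96% of all tested genes passed. They were 2 of 3 transporters and 9 of 17 enzymes, along the chain from Slc2a1 to Slc16a3, with 0 of 4 regulators and 0 of 8 hypoxia-response genes. The differences were 1.29 ± 0.38 (adjusted p = 0.0272) for Slc16a3, 0.98 ± 0.27 (adjusted p = 0.0164) for Gapdh, 0.96 ± 0.17 (adjusted p = 0.000143) for Pgam1, 0.85 ± 0.16 (adjusted p = 0.00028) for Pgk1, 0.77 ± 0.14 (adjusted p = 0.000148) for Ldha, 0.69 ± 0.20 (adjusted p = 0.0211) for Tpi1, 0.65 ± 0.19 (adjusted p = 0.0241) for Slc2a1, 0.65 ± 0.15 (adjusted p = 0.00303) for Pkm, 0.57 ± 0.15 (adjusted p = 0.00903) for Eno1, 0.50 ± 0.15 (adjusted p = 0.0345) for Gpi1 and 0.50 ± 0.13 (adjusted p = 0.0114) for Aldoa. The median over the members was 0.51, against 0.00 over all genes, and for Pgk1, Eno1 and Ldha the groups did not overlap. The count was 10 without libraries against their sex label and 9 without Tcf21 libraries, and 4 where only the 2 groups compared entered the fit. Among markers, 4 of 6 endothelial, 2 of 6 tested macrophage and 2 of 6 mesothelial or visceral genes were higher, and 1 of 7 stress, 1 of 4 fibroblast and 1 of 6 ASC2 marker genes were lower in castrated ASC2. Endothelial sums were 14.8 to 46.6 CPM in control and 55.9 to 112 in castrated ASC2. In the same order macrophage sums were 695 to 1959 and 1307 to 6444, and stress sums 794 to 1785 and 241 to 1135. Fibroblast sums were 7047 to 11584 CPM in control and 3024 to 6641 in castrated ASC2. The 6 ASC2 markers summed to 2717 to 6605 and 1366 to 4370 CPM. The part of these genes in the difference was not tested.

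In ASC1 0 of 32 members passed by edgeR, DESeq2 or limma, where 2.36% of all tested genes did. The estimates were above 0 for 28 of the 32, with a median of 0.34 against -0.01 over all genes. Without the Tcf21 libraries, which left 4 control and 2 castrated ASC1 libraries, the members' median was 0.08 and 0 members passed. All 8 castrated ASC1 libraries went against their sex label. The difference between the castration effects in ASC2 and ASC1 was tested as an interaction, which 2.41% of all genes passed and 0 members by edgeR or DESeq2 (1 by limma), so that edgeR's test showed an unequal response of the 2 populations for no member. The unadjusted counts were 5 members under 0.05 for the interaction and 7 for castration in ASC1.

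Called members were mostly lower after ovariectomy in ASC1. In ASC2 those called were higher, but 0 passed without the libraries against their sex label. In ASC1 20 members were lower and 1 (Ndrg1) was higher in ovariectomized than in control females, where 34.8% of all tested genes passed. The lower ones were 2 of 3 transporters, 13 of 17 enzymes, 2 of 4 regulators and 3 of 8 hypoxia-response genes. For 16 of them the groups did not overlap, and for 8 (Slc2a1, Hk1, Gpi1, Aldoa, Pgk1, Eno1, Pkm and Ldha) the 3 libraries lay below all 55 others. Both counts were made for the members only, so no share over all genes can be set beside them. Slc16a3 fell by 6.09 ± 0.89 (adjusted p = 1.98e-07), Pfkl by 4.55 ± 0.57 (adjusted p = 3.77e-09), Pkm by 3.59 ± 0.25 (adjusted p = 2.60e-17), Eno1 by 3.46 ± 0.25 (adjusted p = 3.72e-17), Slc2a1 by 3.44 ± 0.36 (adjusted p = 3.57e-11), Gapdh by 3.35 ± 0.45 (adjusted p = 2.75e-08) and Hk2 by 2.45 ± 0.53 (adjusted p = 0.000216) on the log2 scale. The other called decreases with reads in all groups were -2.28 ± 0.22 for Ldha, -2.23 ± 0.25 for Pgk1, -2.18 ± 0.31 for Tpi1, -1.96 ± 0.24 for Gpi1, -1.90 ± 0.72 for Pdk3, -1.82 ± 0.26 for Pgam1, -1.73 ± 0.20 for Aldoa, -1.71 ± 0.29 for Hk1, -1.53 ± 0.46 for Bnip3 and -0.98 ± 0.39 for P4ha2. Aldoc was at least 5.65-fold lower and Egln3 at least 2.7-fold lower, against a floor of 3 counts over the group, and Pdk1, with 1 read, was 29.1-fold lower in pooled level (95% exact counting interval 5.11 to 1159). Ndrg1 was higher by 1.30 ± 0.38 (adjusted p = 0.0062). Without library L the calls of Ndrg1, Pdk1, Pdk3, Aldoc and Egln3 were lost, and that of P4ha2 was lost without any 1 of the 3.

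The members' median in this comparison was -1.86, or -1.77 with the genes at 0 reads at their bound, and the median over all genes was -0.34. With library size as the only scaling the all-gene median was -0.66 and 25 members passed, a shift to set beside the members' values. Leaving out library L, N or P gave 16 to 20 calls, and 17 members passed without libraries against their sex label as well as without Tcf21 libraries. In these 3 libraries 5 of 7 stress genes, 4 of 7 ASC1 and 4 of 6 ASC2 marker genes, 4 of 4 fibroblast and 4 of 4 red-cell genes were higher, and 4 of 4 proliferation, 3 of 6 tested macrophage, 3 of 6 endothelial and 3 of 3 tested epithelial genes were lower than in control female ASC1; the epithelial markers Epcam, Krt18, Krt8 and Krt14 had 0 reads. The part of these shifts in the lower glycolytic transcripts was not tested.

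In ASC2 6 members were higher after ovariectomy and 0 were lower, where 2.09% of all tested genes passed. They were 1.32 ± 0.36 (adjusted p = 0.0338) for Slc16a3, 0.78 ± 0.20 (adjusted p = 0.0164) for Tpi1, 0.67 ± 0.16 (adjusted p = 0.012) for Pgk1, 0.63 ± 0.17 (adjusted p = 0.0311) for Pgam1, 0.58 ± 0.15 (adjusted p = 0.0166) for Eno1 and 0.54 ± 0.15 (adjusted p = 0.0295) for Pkm, with a median of 0.55 over all tested members against 0.00 over all genes. No pair of ranges was apart. Without libraries against their sex label, and likewise without Tcf21 libraries, 0 of 32 members passed. The members' median was then 0.07 and 0.44. The first of these fits left 2 control and 8 ovariectomized ASC2 libraries. With only the 2 groups compared in the fit 1 passed, and with DESeq2 12 did. The population's own markers were lower too, 4 of 6 (of Dpp4, Cd55, Arl4d, Pi16, Sema3c and Anxa3) having passed. Their sums were 2181 to 8106 CPM in control and 1093 to 3788 in ovariectomized ASC2. Lower as well were 2 of 4 fibroblast genes. Of 5 tested mural genes 1 was higher. Beside them 3 of 3 tested epithelial genes were higher, with sums of 6.37 to 38.0 CPM in control and 9.88 to 1028 in ovariectomized ASC2, and 3 of 7 stress genes were lower, with sums of 431 to 3214 and 226 to 1059.9 CPM; their part was not tested. The interaction of ovariectomy with population was passed by 22 members, 21 of them with a positive term (the change in ASC2 minus that in ASC1), and by 34.8% of all genes. It was 4.04 ± 0.28 (adjusted p = 2.46e-17) for Eno1, 4.14 ± 0.28 (adjusted p = 2.46e-17) for Pkm and -1.45 ± 0.49 (adjusted p = 0.0174) for Ndrg1.

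**Figure D4:**
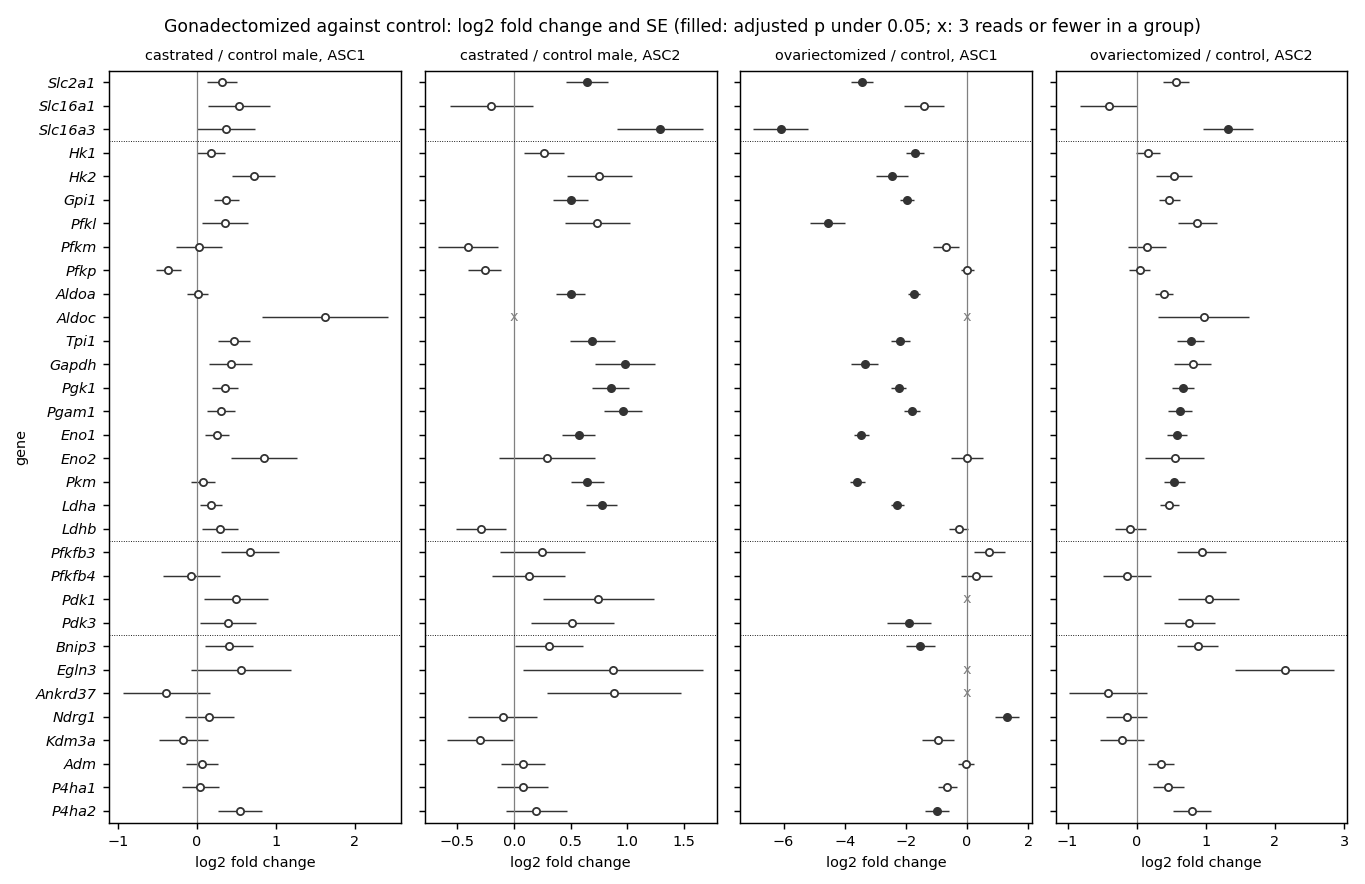
Log2 fold change with its SE for each tested member after castration (left panels) and ovariectomy (right panels) in ASC1 and ASC2; filled points passed the test at an adjusted p of 0.05 and crosses mark comparisons in which a group held at most 3 reads. In ASC2 11 members after castration and 6 after ovariectomy were filled to the right of 0, and in ASC1 0 after castration, and after ovariectomy 17 to the left and 1 to the right, with 3 further called members shown as crosses.

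Between the control sexes, 9 members (the transporter genes Slc2a1 and Slc16a3 and 7 of 17 enzymes) were lower in male than in female ASC2 and 0 were higher, where 6.5% of all tested genes passed. Aldoc, with 1 read in control male ASC2, was 35.8-fold lower in pooled level (95% exact counting interval 5.97 to 1460). The others were -1.41 ± 0.38 (adjusted p = 0.0142) for Slc16a3, -1.16 ± 0.28 (adjusted p = 0.00599) for Hk2, -0.85 ± 0.17 (adjusted p = 0.000872) for Pgam1, -0.78 ± 0.19 (adjusted p = 0.00531) for Slc2a1, -0.72 ± 0.18 (adjusted p = 0.00714) for Hk1, -0.62 ± 0.20 (adjusted p = 0.0418) for Tpi1, -0.60 ± 0.16 (adjusted p = 0.0132) for Pgk1 and -0.52 ± 0.14 (adjusted p = 0.0138) for Ldha. Their groups overlapped for every member, and the median over the members was -0.44 against -0.00 over all genes. The count was 2 without Tcf21 libraries and 4 where only the 2 groups compared entered the fit. It was 11 without libraries against their sex label, which left 4 male and 2 female libraries, both of the latter with Tcf21. Among markers, 2 of 5 tested mural, 1 of 6 endothelial, 1 of 6 mesothelial or visceral, 1 of 4 red-cell, 1 of 4 fibroblast and 1 of 7 stress genes were lower in males and 1 of 4 fibroblast genes was higher. The endothelial median was -0.96 with 6 of 6 estimates below 0, and the mesothelial median was -2.84. Their part was not tested. In ASC1 Ldhb was lower in males, by -0.96 ± 0.23 (adjusted p = 0.0332), and no other member passed, where 0.289% of all tested genes passed; without libraries against their sex label its estimate was 0.09 and it did not pass. As control males served as the base of the castration comparison too, the lower values of control male ASC2 enter both results: Slc16a3 stood at a mean of 46.1 CPM in control male ASC2, 111 in castrated ASC2 and 121 in control female ASC2, Pgk1 at 619, 1119 and 939.6, and Ldha at 1529, 2617 and 2188.

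The neighbouring parts of the pathway were read from 5 further lists. The oxygen-sensing system itself (8 tested genes) had at most 2 called genes in each comparison that did not involve ovariectomized ASC1. Egln1, the main oxygen-sensing prolyl hydroxylase PHD2, was lower in ASC2 than ASC1 of control males, by -1.15 ± 0.29 (adjusted p = 0.00459), and higher in castrated than control ASC2, by 1.07 ± 0.28 (adjusted p = 0.0118). Epas1, which encodes the hypoxia-inducible factor HIF-2α, was lower in ASC2 of control males, by -1.06 ± 0.36 (adjusted p = 0.041), and of control females, by -1.22 ± 0.35 (adjusted p = 0.0209), and Hif1a was lower in ASC2 of castrated males, by -1.31 ± 0.24 (adjusted p = 0.00017). In ovariectomized ASC1 Epas1 fell by 1.44 ± 0.53 (adjusted p = 0.0295) and Hif1a by 1.14 ± 0.38 (adjusted p = 0.0172), while Arnt, their partner, was higher by 0.98 ± 0.35 (adjusted p = 0.0231).

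Of 16 other hypoxia targets, Vegfa, which encodes the angiogenic growth factor, stood at 18.9, 45.1 and 58.3 CPM in control male ASC1 and 4.46, 25.4 and 37.8 in ASC2, and was lower in ASC2 by -1.03 ± 0.32 (adjusted p = 0.0227). In castrated males it was lower in ASC2 by -1.16 ± 0.30 (adjusted p = 0.00715), and in the ovariectomized ASC1 libraries it was at 1.14, 9.18 and 0 CPM against 18.03, 41.4 and 52.5 in control female ASC1. Ero1l, an oxidase of the endoplasmic reticulum, was lower in ASC2 in control males (-1.69 ± 0.38 (adjusted p = 0.00158)), control females (-1.27 ± 0.35 (adjusted p = 0.0133)) and castrated males (-1.39 ± 0.34 (adjusted p = 0.00443)). Higd1a, a small mitochondrial protein, was higher in ASC2 after castration (0.84 ± 0.20 (adjusted p = 0.00459)) and after ovariectomy (0.68 ± 0.19 (adjusted p = 0.0434)). Bhlhe41, a transcriptional repressor, went the other way from the glycolytic genes: it was higher in ASC2 than ASC1 of control males (1.70 ± 0.53 (adjusted p = 0.0266)) and castrated males (1.82 ± 0.58 (adjusted p = 0.0335)), higher in male than female control ASC2 (3.09 ± 0.56 (adjusted p = 0.000197)) and lower in castrated than control ASC2 (-1.62 ± 0.51 (adjusted p = 0.0396)).

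Among 6 tested isozymes and transporters outside the members, Hk3, the hexokinase of leukocytes, moved with the macrophage markers. It was lower in castrated than control ASC1 (-2.07 ± 0.50 (adjusted p = 0.0112)), where 4 of 6 tested macrophage genes were lower, and higher in ASC2 than ASC1 of castrated males (2.14 ± 0.49 (adjusted p = 0.00196)), where 5 of 6 were higher. Macrophage sums in control male ASC1 were 5187 to 6287 CPM in libraries B, C and D, which held Tcf21, and 548 to 639 in libraries E to H. They were 590 to 866 CPM in castrated ASC1. In ovariectomized ASC1 Hk3, Slc2a3 and Pfkfb1 had 0 reads and Eno3 had 2. Of 11 genes for entry of pyruvate to mitochondria, Pdk4, a kinase raised by fasting, stood at 51.4, 41.3 and 18.6 CPM in libraries L, N and P against 0, 2.69 and 5.35 in control female ASC1, and was higher by 3.50 ± 0.77 (adjusted p = 0.00029); Pdk2 (1.53 ± 0.55 (adjusted p = 0.0244)) and the pyruvate carrier gene Mpc1 (1.02 ± 0.26 (adjusted p = 0.00166)) were higher too. In the pentose phosphate pathway, which branches from phosphorylated glucose, Pgd fell by 1.92 ± 0.24 (adjusted p = 3.67e-09), Tkt by 1.55 ± 0.19 (adjusted p = 3.22e-09) and G6pdx by 1.04 ± 0.27 (adjusted p = 0.00165) in ovariectomized ASC1. After castration ASC2 had higher Pgls (1.24 ± 0.36 (adjusted p = 0.0268)), Taldo1 (0.64 ± 0.21 (adjusted p = 0.0488)) and G6pdx (0.52 ± 0.17 (adjusted p = 0.045)).

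The 17 glycolytic enzymes summed to 19738 to 26122 CPM in ASC1 and 7582 to 15964 in ASC2 of control males, 24474 to 29485 and 16632 to 22099 in castrated males, 20383 to 27975 and 9427 to 23122 in control females, and 3571 to 4551 and 18345 to 30377 in ovariectomized females. The ASC1 and ASC2 sums did not overlap in either male condition, and control female ASC2 spanned most of the distance between control male ASC2 and control female ASC1. Across libraries the sum was lower where the 7 stress genes were higher: on log2 scales Pearson's r was -0.80 and Spearman's rho -0.85 over 58 libraries, and -0.79 and -0.82 over the 55 without ovariectomized ASC1. Within groups of 7 or 8 libraries r ran from -0.91 in castrated ASC2 to 0.07 in control male ASC2. These are descriptions over libraries that share group, sort and sequencing pool, and both sums are shares of the same total. With the enzyme sum, total counts had an r of 0.07 and a rho of -0.06 over 58 libraries. The number of genes detected had an r of 0.45 and a rho of 0.18 over 58 libraries, and of 0.03 and 0.04 over the 55. The sum of the 9 hypoxia-response genes had an r of 0.45 and a rho of 0.73 over 58 libraries, and of 0.73 and 0.82 over the 55. Genes detected numbered 9122 to 11634 in ovariectomized ASC1 and 10502 to 14395 in control female ASC1. The part of this difference was not tested.

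**Figure D5:**
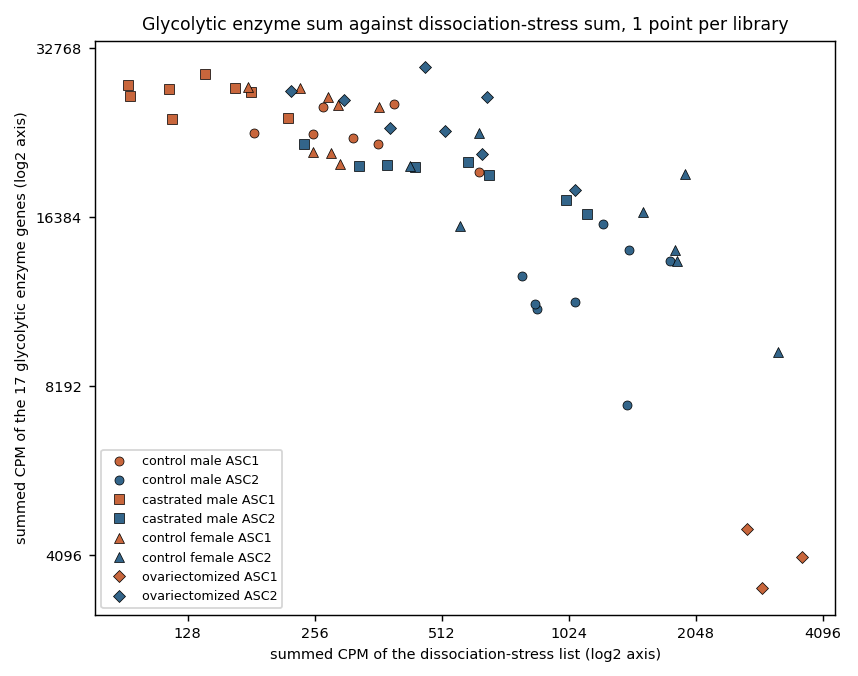
Summed CPM of the 17 glycolytic enzymes against summed CPM of the 7 dissociation-stress genes, both on log2 axes, with 1 point for each of the 58 libraries. Colour marks ASC1 or ASC2, and marker shape marks sex and surgery. The 3 ovariectomized ASC1 libraries sat at lower right, at enzyme sums of 3571 to 4551 CPM and stress sums of 2712 to 3656 CPM, and over the other 55 libraries Spearman's rho was -0.82.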

How the data were processed

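Bulk RNA sequencing of the 58 sorted libraries followed the Smart-seq3 protocol. According to the paper's methods and the submitters' processing notes, adapter sequence was cut off with NGmerge by the authors, who then used STAR 2.7.10a on GRCm39 for quality control, and quantified transcripts with Salmon 1.9.0 against Gencode cDNA and non-coding RNA, counting reads with and without molecular identifiers together and removing libraries with few detected genes. The deposited values are the authors' estimated counts per gene, not normalized; 15.0% of those above 0 were not whole and were rounded.

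Counts were analysed with edgeR 4.0.16 in R 4.3.3: TMM scaling, a filter that kept a gene where over 3 libraries held 5 reads or more, 1 coefficient for each of 8 groups, glmQLFit and glmQLFTest, Benjamini-Hochberg adjustment over 12464 genes and a threshold of 0.05. Group labels came from the sample titles. CPM used TMM-scaled library sizes, and shares within a gene family used CPM per kilobase of merged exons of the reference annotation. DESeq2 1.42.0 (the study's tool), limma 3.58.1 with voom, other scalings and filters, and subsets of libraries were tried as alternatives. The test was checked on simulated counts with known changes. Sums, ranges and promoter letters were computed in Python 3.11.15 with scipy 1.17.1 and pandas 2.3.3. Upstream stretches came from RefSeq on GRCm38.p6, another build than the authors' GRCm39, and were matched by symbol.

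Library totals of 106566 to 1421547 counts and a biological coefficient of variation of 35.6% set the precision, and low members (Aldoc, Egln3, Car9, Ankrd37, Pdk1) rested on few reads. Whether libraries of 1 letter came from 1 mouse is not stated; p-values measure the spread between libraries. In pairs of groups sharing letters, same-letter libraries did not all correlate above 0.1 in their deviations, so letters were not used as pairs. All members were named; in each comparison called members were counted by role and direction and the 10 largest changes given, and from the further pathway lists up to 4 genes each. The members and lists were chosen with earlier results of these data known.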

Additional observations from a re-analysis of the deposited data

Results flagged for a closer look

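In 25 of 224 pairs of a member and a group of 7 or 8 libraries (11.2%), 1 library stood far from the rest by Dixon's gap criterion. In 23 it was the lowest library and in 2 the highest. The criterion's rate of about 1 in 20 is for independent normal values. These were CPM of members that share libraries, some at few reads, and no share over all genes was counted. The 11.2% can therefore not be set against that rate. No cause was tested.
In castrated ASC2 these were Slc16a1 at 4.38 CPM in library I (others 22.6 to 44.7), Pfkl at 74.0 CPM in library K (others 233 to 567), Gapdh at 1803 CPM in library J (others 2577 to 3239), Pkm at 3706 CPM in library P (others 4394 to 5019) and P4ha2 at 66.7 CPM in library K (others 233 to 406).
In control male ASC2 these were Slc16a3 at 9.09 CPM in library A (others 31.2 to 70.0), Aldoc at 0.706 CPM in library E (others 0), Gapdh at 129 CPM in library D (others 942 to 2214), Eno2 at 0 CPM in library F (others 4.46 to 22.6), Ldha at 805 CPM in library D (others 1340.2 to 1949), Pfkfb4 at 2.23 CPM in library D (others 15.4 to 29.7) and Ankrd37 at 0 CPM in library A (others 2.12 to 6.75).
In control female ASC2 these were Slc16a3 at 11.1 CPM in library E (others 66.2 to 286) and Eno2 at 1.47 CPM in library H (others 11.1 to 29.9).
In control male ASC1 these were Hk1 at 91.7 CPM in library B (others 153 to 207), Pfkp at 262 CPM in library F (others 161 to 198) and Kdm3a at 6.66 CPM in library G (others 17.9 to 33.1).
In castrated ASC1 these were Hk2 at 20.4 CPM in library J (others 43.0 to 68.0) and Pfkm at 7.85 CPM in library M (others 23.6 to 47.9).
In control female ASC1 these were Eno2 at 0 CPM in library F (others 9.63 to 48.3), Egln3 at 0 CPM in library A (others 3.33 to 12.1) and Ankrd37 at 0 CPM in library A (others 8.02 to 16.9).
In ovariectomized ASC2 these were Eno2 at 0 CPM in library P (others 7.69 to 43.2), Kdm3a at 0 CPM in library P (others 9.16 to 25.9) and Adm at 111 CPM in library P (others 198 to 299).

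In 22 members the effect of ovariectomy differed between ASC2 and ASC1 by the interaction term of edgeR's quasi-likelihood test. The difference of the 2 log2 fold changes, ASC2 minus ASC1, was 4.01 for Slc2a1 (adjusted p = 8.66e-12), 7.42 for Slc16a3 (adjusted p = 1.00e-08), 1.87 for Hk1 (adjusted p = 1.37e-05), 2.99 for Hk2 (adjusted p = 6.24e-05), 2.43 for Gpi1 (adjusted p = 5.59e-10), 5.43 for Pfkl (adjusted p = 5.52e-10), 2.12 for Aldoa (adjusted p = 1.21e-10). It was 7.15 for Aldoc (adjusted p = 0.00642), 2.96 for Tpi1 (adjusted p = 2.88e-09), 4.17 for Gapdh (adjusted p = 3.68e-09), 2.90 for Pgk1 (adjusted p = 1.22e-11), 2.45 for Pgam1 (adjusted p = 6.39e-09), 4.04 for Eno1 (adjusted p = 2.46e-17), 4.14 for Pkm (adjusted p = 2.46e-17), 2.76 for Ldha (adjusted p = 5.35e-13). For the remaining members it was 5.56 for Pdk1 (adjusted p = 0.000217), 2.66 for Pdk3 (adjusted p = 0.00806), 2.41 for Bnip3 (adjusted p = 0.000487), 7.39 for Egln3 (adjusted p = 0.00119), -1.45 for Ndrg1 (adjusted p = 0.0174), 1.10 for P4ha1 (adjusted p = 0.0238), 1.78 for P4ha2 (adjusted p = 0.00285). The values for Aldoc and Egln3 rest on groups at 0 reads and depend on the fit's prior count. All 22 share the 3 ovariectomized ASC1 libraries that stood apart in the marker genes.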

How the results depend on the processing

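Of 1987 recomputed log2 fold changes of called members, 1767 kept their direction and their side of the threshold, 208 kept their direction but no longer passed and 12 reversed. This total pools unlike settings and leaves out values that could not be computed. Adding near-identical copies left 137 values unchanged. Without libraries against their sex label 79 were unchanged, 34 no longer passed and 11 reversed. Without Tcf21 libraries these counts were 81, 55 and 1. With only the groups compared in the fit, members called went from 0 to 2 for castration in ASC1, from 11 to 4 for castration in ASC2, from 6 to 1 for ovariectomy in ASC2, from 1 to 0 and from 9 to 4 for control males against females in ASC1 and ASC2, and from 16 to 10 for ASC2 against ASC1 in control females. DESeq2 gave 12 for ovariectomy in ASC2, and limma with voom gave 1 for the castration interaction. Without libraries against their sex label the counts were 0 for ovariectomy in ASC2, 0 for males against females in ASC1, and 10 and 0 for ASC2 against ASC1 in control males and control females. Without Tcf21 libraries they were 0 for ovariectomy in ASC2, 0 and 2 for males against females in ASC1 and ASC2, and 3 and 0 for ASC2 against ASC1 in control females and castrated males. Without libraries under 300000 counts ASC2 against ASC1 in castrated males gave 7. Leaving out ovariectomized ASC1 libraries gave 16 to 20 calls for ovariectomy in ASC1, 6 to 6 in ASC2, 16 to 20 for ASC2 against ASC1 and 20 to 21 for the interaction. Neither the causes nor the part of the smaller number of libraries was tested.

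Reversed estimates without libraries against their sex label were 0.091 for Ldhb in males against females, ASC1; 0.25 for Pdk1, 0.39 for P4ha2, 0.27 for P4ha1, 0.075 for Pfkl, 0.057 for Tpi1, 0.34 for Adm, 0.023 for Gpi1, 0.0021 for Pgk1 and 0.37 for Bnip3 in ASC2 against ASC1 of control females; and -0.082 for P4ha1 in the ovariectomy interaction. Without Tcf21 libraries P4ha2 after ovariectomy in ASC1 was at 0.17.

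With a replicate block by letter, 2 and 0 members passed for males against females in ASC1 and ASC2, and 18, 15, 15 and 14 for ASC2 against ASC1 in control males, control females, castrated males and ovariectomized females. Libraries correlated best with their own letter in 3 of 7, 2 of 8, 2 of 7, 2 of 8, 1 of 8 and 2 of 3 pairs in these 6 comparisons, so the letter served as a number only. Without libraries against their sex label no castrated ASC1 library was left, and without libraries under 300000 counts 1 ovariectomized ASC1 library was left, so those values were not computed. Members near or under 3 counts in a group could not be resolved at this depth.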
